A study of Mus musculus with 16 samples.

Results

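The genes described here are 10 that mark the maturation of antigen-presenting cells and the ligands they show to T cells: Ccr7, Fscn1, Cd40, Cd80, Cd86, Cd83, Icosl, Relb, Cd274 and Pdcd1lg2. They were taken by symbol from the 55421 gene rows of a count table, 1 row for each gene, and all 10 passed the filter on low counts that left 21085 genes for testing. Expression was measured by RNA sequencing in CD169+ macrophages sorted from lymph nodes of male mice of the strain labelled C57B/6, whose age is not given in the sources used here. Every mouse carried MOC2, a squamous cell carcinoma line implanted intradermally in the flank near the inguinal node, and no group came from mice without a tumor. Nodes were collected 2 weeks later from mice with tumors of similar size.

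Sub-capsular sinus macrophages (SSMs) were sorted as CD11c- cells with low side scatter, and medullary sinus macrophages (MSMs) as CD11c+ cells with high side scatter. Both came from live CD45+ CD3- B220- Ly6G- CD11b+ CD169+ cells. Each subset was taken from tumor-draining nodes (tdLN) and non-draining nodes (ndLN), which gave 4 groups of 2 libraries. A library was made from about 10000 cells of a pool of 2 mice, from either 2 tdLN or 6 ndLN (contralateral inguinal, axillary and brachial), so the node position differs between tdLN and ndLN along with drainage. The SSM and MSM libraries of a pool came from the same cell suspension.

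Antigen-presenting cells that mature lower their uptake of antigen, raise Ccr7, the receptor that guides them along the chemokines Ccl19 and Ccl21 into and within lymph nodes, and rearrange their actin with Fscn1 (fascin). They also show T cells a second signal beside antigen. Cd80 and Cd86 bind Cd28 and Ctla4, Icosl binds Icos, and Cd40 receives Cd40lg from T cells, while Cd274 (PD-L1) and Pdcd1lg2 (PD-L2) bind the inhibitory receptor Pdcd1 (PD-1). Relb is a subunit of NF-kappaB that acts in the non-canonical branch of the pathway, downstream of Cd40.

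The libraries held between 42972328 and 48130352 reads, so that 3 counts, used as the floor, correspond to between 0.0623 and 0.0698 CPM (read counts scaled to a library of equal size). Levels are given below as CPM scaled by TMM factors, or as CPM per kilobase of exon (CPM per kb) wherever genes are set against each other. The labelled cell types were checked against their markers. Siglec1, which encodes the CD169 used in the sort, was at 15.1 and 8.47 CPM in SSMs from ndLN, 70.0 and 59.2 CPM in SSMs from tdLN, 0.795 and 1.63 CPM in MSMs from ndLN, and 5.96 and 5.64 CPM in MSMs from tdLN. It was therefore low in MSMs, and lower in SSMs from ndLN than in SSMs from tdLN. Itgam, which encodes the CD11b of the sort, was also low in MSMs, at 9.64 and 10.7 CPM in ndLN and 20.4 and 13.7 CPM in tdLN. In SSMs it was at 67.5 and 54.6 CPM in ndLN and 124 and 90.2 CPM in tdLN. The sum of 11 macrophage markers, Siglec1 and Itgam among them, was 5963 to 22977 CPM in SSMs and 4724 to 5389 CPM in MSMs. Lyz2 alone made up most of it in every library, at 5044 to 19309 CPM in SSMs and 3998 to 4636 CPM in MSMs. Single markers did not all go that way, and Cd68 was at 211 and 134 CPM in SSMs and 385 and 326 CPM in MSMs from ndLN. By the threshold given below, 3 of the 11 were called higher and 2 lower in SSMs in ndLN (6.01% and 6.06% of all genes). In tdLN 4 were called higher and 0 lower (5.16% and 3.52%). The summed level of 10 markers of conventional dendritic cells was 443 to 593 CPM in SSMs and 2727 to 3090 CPM in MSMs, in which Flt3 reached 672 to 852 CPM and Xcr1 630 to 752 CPM. SSMs in turn held more RNA of T cell markers (735 to 1402 CPM against 50.9 to 217 CPM in MSMs), of NK cell markers (1079 to 1813 CPM against 34.9 to 75.2 CPM) and of mast cell and basophil markers (367 to 2801 CPM against 35.3 to 77.5 CPM). The sum of innate-like lymphoid markers was 553 to 1892 CPM in SSMs and 297 to 671 CPM in MSMs. Kit made up most of it in every MSM library, at 269 to 614 CPM, and 61.6 to 481 CPM of it in SSMs. For B cells, which can express several of the 10 genes, the sum of 10 markers was 116 to 174 CPM in SSMs, of which Blk made up 72.3 to 142 CPM, and 53.2 to 109 CPM in MSMs, with Fcrla at 16.1 to 37.6 CPM and Pax5 at 0 to 0.594 CPM in all libraries. In such sorted bulk samples, a change in the number of cells that express a gene and a change in its RNA per cell cannot be told apart.

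Per kilobase, Cd83 and Ccr7 were the most abundant of the 10 genes in every group. Ccr7 came first in SSMs from ndLN, at 786 ± 230 CPM per kb (SD, n = 2), ahead of Cd83 at 441 ± 112 CPM per kb. In the other 3 groups the order was the opposite, and MSMs from ndLN had the widest gap, with Cd83 at 1995 ± 175 CPM per kb and Ccr7 at 836 ± 6.67 CPM per kb. At the other end, Icosl was the lowest in SSMs from both nodes and in MSMs from tdLN, at 6.51 to 16.9 CPM per kb on average, and Pdcd1lg2 was the lowest in MSMs from ndLN, at 5.07 ± 2.88 CPM per kb. Neighbours in this order whose libraries overlapped were Fscn1 and Relb in SSMs from both nodes, Cd86 and Cd40 in SSMs from ndLN, Relb and Cd86 as well as Cd86 and Cd274 in SSMs from tdLN, Cd40 and Cd80 in MSMs from ndLN, and Cd80 and Pdcd1lg2 in MSMs from tdLN.

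**Figure D1:**
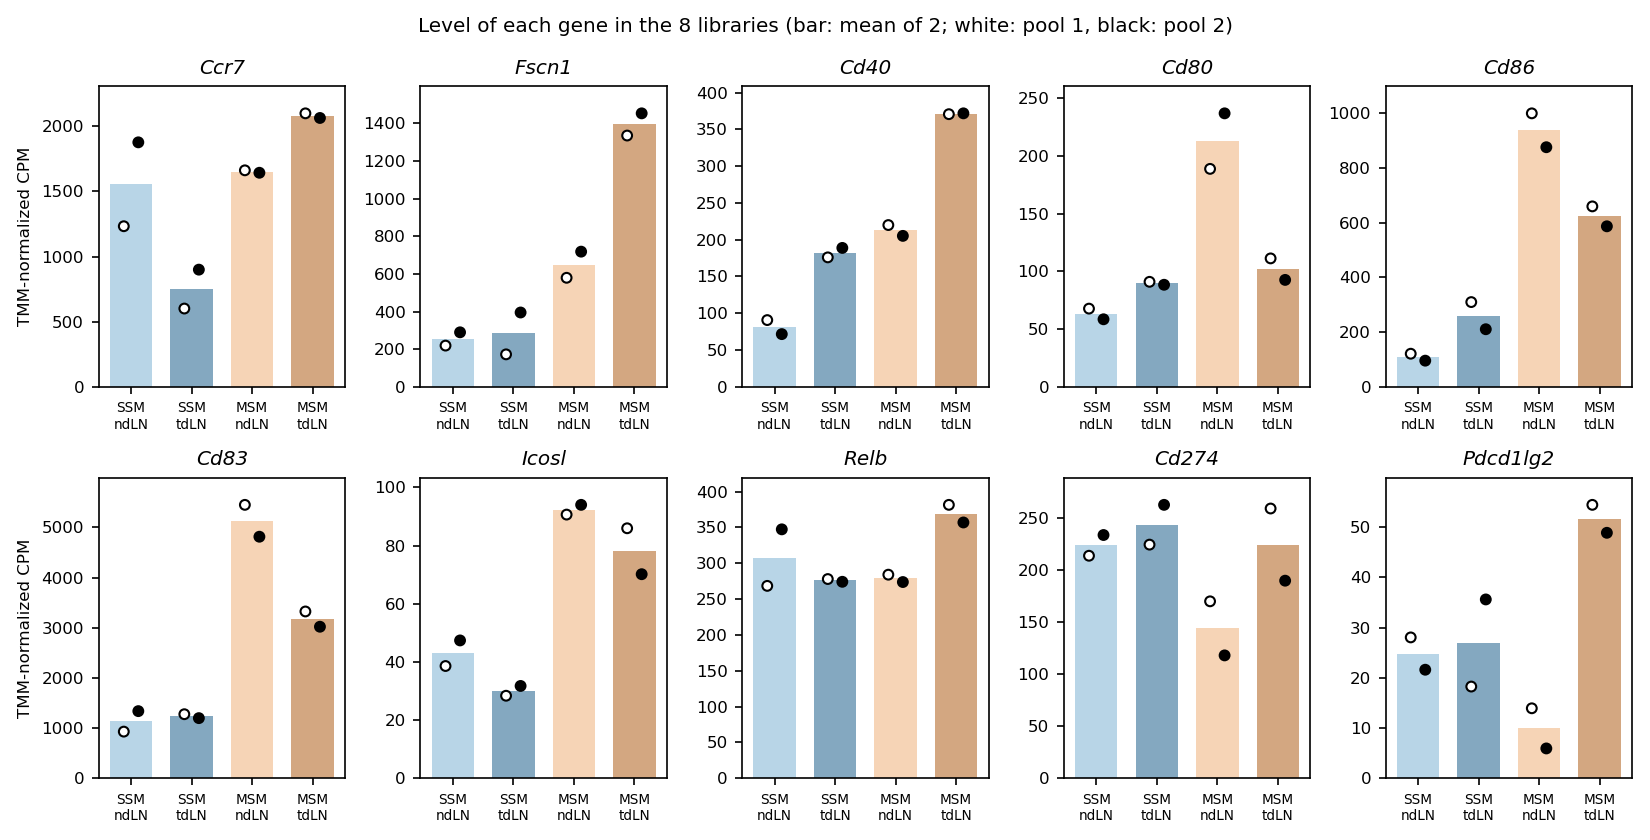
TMM-normalized CPM (linear axis from 0, scaled separately for each gene) of the 10 genes in SSMs and MSMs from ndLN and tdLN. Bars are means of 2 libraries, white points pool 1 and black points pool 2. Cd83 reached 4813 to 5447 CPM in MSMs from ndLN, Relb stayed between 269 and 382 CPM in all 8 libraries, and Pdcd1lg2 rested on 5.95 to 54.5 CPM.

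The first question was how the 2 subsets differed within a node. Most of the co-stimulatory genes were lower in SSMs than in MSMs. A gene was called when edgeR's quasi-likelihood test gave a Benjamini-Hochberg adjusted p-value under 0.01 over all tested genes and its mean normalized count was over 100 per lane. All 10 genes passed the threshold on the mean, and so did 9988 of the 21085 tested genes. The shares of genes called are of the 21085 throughout, so they include genes too low to be called. In ndLN, 6 of the 10 genes were called lower in SSMs and 0 higher, where 6.06% of all tested genes were called lower and 6.01% higher. In tdLN, 6 were also called lower and 0 higher, with 3.52% of all genes called lower and 5.16% higher. The median log2 fold change of the 10 genes, SSMs over MSMs, was -1.23 in ndLN and -1.15 in tdLN, beside 0.09 and 0.02 over all tested genes.

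Cd86 (chr16:36603869-36666081 on mm10, the build of all coordinates here) had the largest difference in ndLN. It was at 121 and 95.6 CPM in SSMs and at 999 and 875 CPM in MSMs from ndLN, and at 310 and 210 CPM in SSMs and 659 and 586 CPM in MSMs from tdLN. All SSM libraries lay below all MSM libraries. The level in SSMs was 8.71-fold lower in ndLN (log2 fold change -3.12 ± 0.144 SE, adjusted p = 1.91e-05) and 2.43-fold lower in tdLN (-1.28 ± 0.135, adjusted p = 6.99e-04).

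Cd80 (chr16:38455561-38496335), the other ligand of Cd28 and Ctla4, is encoded on the same chromosome. Its level was 67.8 and 58.5 CPM in SSMs and 189 and 237 CPM in MSMs from ndLN, whereas in tdLN it was 91.0 and 88.4 CPM in SSMs and 111 and 92.7 CPM in MSMs. SSMs were 3.38-fold lower in ndLN (-1.76 ± 0.179, adjusted p = 4.23e-04). In tdLN the libraries of the subsets did not overlap but lay close together, and the difference was not called (-0.18, 95% interval -0.59 to 0.23, adjusted p = 0.572).

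Cd83 (chr13:43784775-43803132), a surface protein of mature dendritic cells that helps to keep MHC class II and Cd86 on the membrane, was at 930 and 1338 CPM in SSMs and 5447 and 4813 CPM in MSMs from ndLN. In tdLN it was at 1277 and 1199 CPM in SSMs and 3324 and 3020 CPM in MSMs. All SSM libraries were far below all MSM libraries. Cd83 was 4.53-fold lower in SSMs in ndLN (-2.18 ± 0.18, adjusted p = 1.64e-04) and 2.56-fold lower in tdLN (-1.36 ± 0.175, adjusted p = 0.00174).

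Cd40 (chr2:165055627-165072948), the receptor through which T cells license antigen-presenting cells, was at 90.7 and 71.7 CPM in SSMs and 220 and 205 CPM in MSMs from ndLN. Its level in tdLN was 176 and 189 CPM in SSMs and 371 and 372 CPM in MSMs. The subsets did not overlap within either node, but SSMs from tdLN came near to MSMs from ndLN. SSMs were 2.62-fold lower in ndLN (-1.39 ± 0.148, adjusted p = 5.14e-04) and 2.03-fold lower in tdLN (-1.02 ± 0.145, adjusted p = 0.00263).

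Icosl (chr10:78069302-78083913) was at 38.6 and 47.4 CPM in SSMs and 90.7 and 94.0 CPM in MSMs from ndLN, and at 28.4 and 31.8 CPM in SSMs and 85.9 and 70.2 CPM in MSMs from tdLN. Every SSM library was below every MSM library. The level in SSMs was 2.15-fold lower in ndLN (-1.10 ± 0.181, adjusted p = 0.00382) and 2.60-fold lower in tdLN (-1.38 ± 0.186, adjusted p = 0.00213).

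Of the genes of migration, Ccr7 (chr11:99144196-99155077) differed between the subsets in tdLN and not detectably in ndLN. It was at 1233 and 1877 CPM in SSMs and 1662 and 1644 CPM in MSMs from ndLN, and at 601 and 900 CPM in SSMs and 2100 and 2064 CPM in MSMs from tdLN. The 2 SSM libraries from ndLN lay on either side of the MSM libraries, whereas in tdLN the subsets were apart. SSMs were 2.83-fold lower in tdLN (-1.50 ± 0.188, adjusted p = 0.00152), and in ndLN the difference was -0.12 (95% interval -0.55 to 0.31, adjusted p = 0.696).

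Fscn1 (chr5:142960343-142973185), the actin-bundling protein of dendritic cell processes, was lower in SSMs in both nodes. Its level was 219 and 289 CPM in SSMs and 579 and 718 CPM in MSMs from ndLN, and 172 and 395 CPM in SSMs and 1335 and 1453 CPM in MSMs from tdLN. The SSM libraries from tdLN were the farthest apart of any pair for this gene, yet both stayed below all MSM libraries. The level was 2.57-fold lower in ndLN (-1.36 ± 0.238, adjusted p = 0.00521) and 5.23-fold lower in tdLN (-2.39 ± 0.247, adjusted p = 6.59e-04). The call in ndLN was lost without the pool block in the model (adjusted p = 0.0169).

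Relb (chr7:19606217-19629438) was the most even of the 10 genes. It was at 269 and 347 CPM in SSMs and 284 and 274 CPM in MSMs from ndLN, and at 278 and 274 CPM in SSMs and 382 and 357 CPM in MSMs from tdLN. The subsets overlapped in ndLN (log2 fold change 0.14, 95% interval -0.21 to 0.48, adjusted p = 0.549). In tdLN the SSM libraries lay below the MSM libraries, and the difference was not called (-0.42, 95% interval -0.77 to -0.07, adjusted p = 0.107).

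Neither PD-1 ligand was called between the subsets. Cd274 (chr19:29367455-29388095) was at 214 and 234 CPM in SSMs and 170 and 118 CPM in MSMs from ndLN, and at 224 and 263 CPM in SSMs and 259 and 190 CPM in MSMs from tdLN. Both SSM libraries were above both MSM libraries in ndLN, and the subsets overlapped in tdLN. The difference was not called in ndLN (0.65 ± 0.211, 95% interval 0.16 to 1.14, adjusted p = 0.0634) or in tdLN (0.14, 95% interval -0.35 to 0.62, adjusted p = 0.744). Exons of Cd274 overlap those of the antisense gene AC119228.1, which held 606 reads over all libraries beside 75900 for Cd274, and the strand setting of the counts is not known. Of the 50-base windows in Cd274 transcripts, 12.4% also occur in transcripts of other genes on either strand, against 0 to 0.674% for the other members. The effect of this on the counts and ratios of Cd274 was not tested.

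Pdcd1lg2 (chr19:29410919-29471161), the neighbour of Cd274, was the least counted of the 10 genes. It was at 28.1 and 21.6 CPM in SSMs and 13.9 and 5.95 CPM in MSMs from ndLN, and at 18.3 and 35.6 CPM in SSMs and 54.5 and 48.9 CPM in MSMs from tdLN. SSMs were above MSMs in ndLN (1.35 ± 0.44, adjusted p = 0.0658) and below them in tdLN (-0.92 ± 0.396, adjusted p = 0.181), and neither difference was called. Leaving out 1 library moved the value in ndLN to 2.13 without pool 1 and 0.78 without pool 2 of the MSMs, and that in tdLN to -0.28 without pool 1 and -1.76 without pool 2 of the SSMs. In DESeq2's Wald test, both PD-1 ligands passed in ndLN (adjusted p = 0.00948 for Cd274 and 0.00645 for Pdcd1lg2). That test called 3673 of the 21085 tested genes in ndLN in either direction, where edgeR's quasi-likelihood test called 2544.

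The start of Pdcd1lg2 is shown because it was the only one of the 5 promoters at hand that held the binding motif of NF-kappaB, the factor to which Relb belongs. Windows from 250 bases before to 50 bases after the start, from RefSeq on GRCm38.p6, were at hand for Cd274, Cd80, Fscn1, Icosl and Pdcd1lg2, and none was used for Ccr7, Cd40, Cd86, Cd83 and Relb. The kappaB consensus of 10 bases was searched on both strands, and 6.55% of 26994 genes had a match in a window of the same length. The first bases of the Pdcd1lg2 window, chr19:29410669-29410704 on the plus strand, are printed 5′ to 3′ with the match in capitals. It lies at bases -244 to -235 from the start and reads as the consensus on the opposite strand.
Pdcd1lg2: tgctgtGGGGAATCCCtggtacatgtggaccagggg
A match is a description of letters and no measure of binding, and no match in the other 4 windows says only that the motif is not in them.

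**Figure D2:**
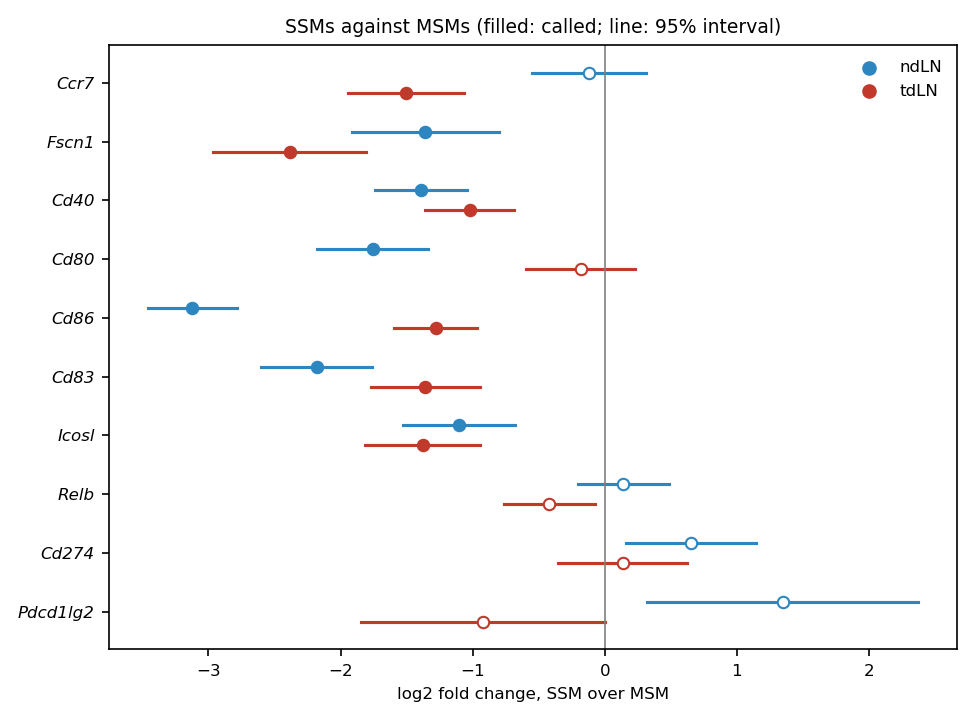
Log2 fold change of SSMs over MSMs (x axis) for the 10 genes in ndLN (blue) and tdLN (red), with 95% intervals from edgeR's quasi-likelihood fit and filled points for called genes. Filled points lie left of 0 for 6 genes in each node, from -3.12 for Cd86 in ndLN to -1.02 for Cd40 in tdLN, and both PD-1 ligands have open points in both nodes.

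The weight of 1 library in these calls was examined by leaving out each of the 8 in turn. In ndLN, Cd86, Cd83, Cd80 and Cd40 were called in all 8 refits, with adjusted p-values up to 9.60e-04, 0.00424, 0.00613 and 0.00897. Fscn1 lost its call without any 1 of the 4 libraries from ndLN (adjusted p = 0.0318 to 0.0588) and Icosl likewise (0.0110 to 0.0340), as well as without 2 of the libraries from tdLN. In tdLN, Fscn1 was called in all 8 refits. Ccr7, Cd40 and Cd83 lost their calls without any 1 of the 4 libraries from tdLN, with adjusted p-values of 0.0102 to 0.0365, 0.0238 to 0.0574 and 0.0171 to 0.0414, Icosl lost its call without 3 of them and Cd86 without 2, with adjusted p-values up to 0.0430 and 0.0198. The 6 genes called in each node kept a negative log2 fold change in that node in every refit.

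The 6 genes called in each node, which differ between the nodes by Cd80 and Ccr7, were higher in both MSM libraries of that node. All MSM libraries also had a higher sum of conventional dendritic cell markers than all SSM libraries, as given above. Of these markers, 7 of 10 were called lower in SSMs in ndLN and 8 in tdLN, beside 6.06% and 3.52% of all genes. The part of that sum in the differences was not tested.

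The second question was what differed between tdLN and ndLN within a subset. In SSMs, Cd86 and Cd40 were higher in tdLN, 2 of the 10 genes against 1.98% of all tested genes called higher, and 0 were called lower, against 1.05%. Cd86 was 2.38-fold higher (1.25 ± 0.136, adjusted p = 0.0026), by 1.36 in pool 1 and 1.14 in pool 2 on the log2 scale. Cd40 was 2.26-fold higher (1.17 ± 0.147, adjusted p = 0.00425), by 0.96 and 1.40. For both genes the SSM libraries from tdLN lay above those from ndLN. The call of Cd86 was lost without any 1 of the 4 SSM libraries (adjusted p = 0.0157 to 0.0596) and without pool 1 of the MSMs from tdLN. That of Cd40 was lost in 7 of the 8 refits that left out 1 library (adjusted p up to 0.0793), all but the one without pool 1 of the SSMs from ndLN. The direction of both was kept in all 8.

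The largest negative value in SSMs was that of Ccr7. Its log2 fold change was -1.05 ± 0.186, equal to 2.07-fold, and nearly the same in both pools (-1.04 and -1.06). The adjusted p of 0.0148 missed the threshold of 0.01, although it passed in DESeq2's Wald test (4.24e-06), with genes kept at 1 CPM or more in 2 libraries (0.00541) and on lane 3 or lane 4 alone (0.00889 and 0.00831). With 1 library left out, the adjusted p was 0.0241 to 0.195 and the log2 fold change -1.26 to -0.82, and with only the SSM libraries in the fit the threshold was also missed. The sum of 10 T cell markers, cells that also express Ccr7, was 1241 and 1402 CPM in SSMs from ndLN and 735 and 808 CPM in SSMs from tdLN. All 10 T cell markers were lower in SSMs from tdLN by their values (median log2 fold change -0.81), with 0 called by edgeR's quasi-likelihood test, 10 at an unadjusted p under 0.05 (23% of all genes) and 5 called by DESeq2's Wald test (9.17% of all genes). The sum of 10 innate-like lymphoid markers was 1477 and 1892 CPM in ndLN and 553 and 595 CPM in tdLN (4 of 10 called lower, 0 higher), and that of 10 mast cell and basophil markers 2801 and 1650 CPM and then 367 and 783 CPM (1 called lower, 1 higher). The sum of 11 macrophage markers moved the other way, from 9172 and 5963 CPM to 22977 and 15768 CPM, with 7 of 11 called higher, beside the higher Cd86 and Cd40. Lyz2 made up most of that sum, at 7940 and 5044 CPM in ndLN and 19309 and 12932 CPM in tdLN. Vsig4, also on that list, had 0 reads. Over all tested genes, 1.98% were called higher and 1.05% lower in SSMs from tdLN. In MSMs the same T cell marker sum was 176 and 217 CPM in ndLN and 53.2 and 50.9 CPM in tdLN. All 10 were lower there by their values (median log2 fold change -2.30, 0 called by edgeR), while Ccr7 was at 0.33 and not called. The part of these sums in the differences was not tested.

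The other 7 genes were not called in SSMs. Cd80 was 0.51 higher on the log2 scale (95% interval 0.09 to 0.92, adjusted p = 0.133) and Icosl 0.51 lower (log2 fold change -0.51, interval -0.95 to -0.08, adjusted p = 0.145), with libraries that did not overlap. Cd83, Cd274, Pdcd1lg2, Fscn1 and Relb had log2 fold changes between -0.15 and 0.14, and their libraries from tdLN and ndLN overlapped. The intervals of Cd274 (-0.36 to 0.61) and Cd83 (-0.27 to 0.53) do not reach a 2-fold change, whereas that of Pdcd1lg2 (-0.81 to 1.08) does.

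In MSMs, the libraries from tdLN and ndLN did not overlap for any of the 10 genes, which was also so for 38.5% of all tested genes. By edgeR's quasi-likelihood test 0 of the 10 were called, with 0.0237% of all genes called in either direction. At an unadjusted p under 0.05 there were 8 of the 10, with 11.9% of all genes, and DESeq2's Wald test called 5 (Fscn1, Cd40, Cd80, Cd86 and Pdcd1lg2), with 2.35% of all genes.

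Pdcd1lg2 had the largest difference in MSMs, at 5.30-fold higher in tdLN (2.40 ± 0.436, adjusted p = 0.0856), by 1.97 in pool 1 and 3.04 in pool 2. Its log2 fold change was 3.19 without pool 1 and 1.83 without pool 2 of the MSMs from ndLN. Fscn1 was 2.17-fold higher (1.12 ± 0.236, adjusted p = 0.127) and Cd40 1.75-fold higher (0.81 ± 0.144, adjusted p = 0.0817). Cd274, Relb and Ccr7 had smaller positive values, at 0.64, 0.40 and 0.33. On the other side, Cd80 was 2.10-fold lower (-1.07 ± 0.176, adjusted p = 0.0618), Cd83 1.62-fold lower (-0.69 ± 0.173, adjusted p = 0.179) and Cd86 1.50-fold lower (-0.59 ± 0.132, adjusted p = 0.148). Icosl was at -0.24 (95% interval -0.65 to 0.17). None of these passed the threshold.

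**Figure D3:**
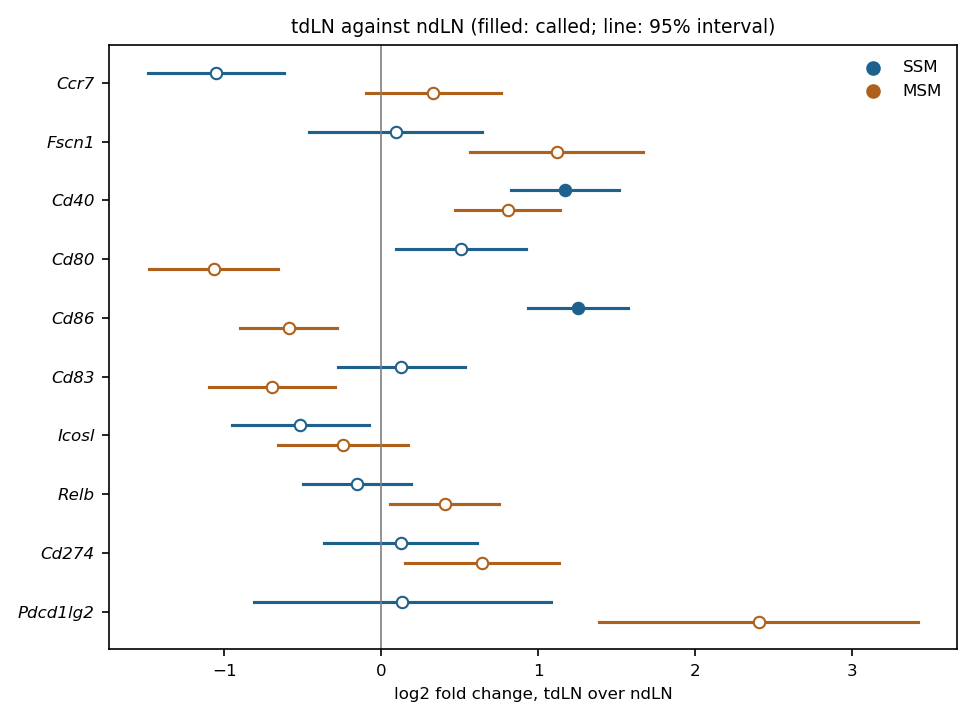
Log2 fold change of tdLN over ndLN (x axis) for the 10 genes in SSMs (blue) and MSMs (brown), with 95% intervals from edgeR's quasi-likelihood fit and filled points for called genes. The 2 filled points are Cd40 and Cd86 in SSMs, and for Ccr7, Cd80, Cd86, Cd83 and Relb the points of the subsets lie on opposite sides of 0.

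Whether the node difference itself differed between the subsets was tested as an interaction, SSM change minus MSM change. None of the 10 genes was called by edgeR's quasi-likelihood test, where 0.0379% of all genes were called in either direction, 7 of the 10 had an unadjusted p under 0.05 (12.3% of all genes), and DESeq2's Wald test called 4 (Ccr7, Cd80, Cd86 and Pdcd1lg2; 3.22% of all genes). The lowest adjusted p was that of Cd86, at 0.0176, with an interaction of 1.84 ± 0.19 on the log2 scale. Cd80 followed with 1.57 ± 0.25 (adjusted p = 0.0389) and Ccr7 with -1.38 ± 0.261 (adjusted p = 0.0675). The interaction of Pdcd1lg2 was -2.27 ± 0.591 (adjusted p = 0.153), between -3.13 and -1.67 with 1 library left out. That of Cd40, higher in tdLN in both subsets by its value, was 0.37 (95% interval -0.11 to 0.84, adjusted p = 0.557).

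Ratios between the genes were taken within each library. On the scale of CPM per kb, the ratio of Cd274 to Cd86 was 1.79 and 2.47 in SSMs from ndLN, 0.733 and 1.26 in SSMs from tdLN, 0.172 and 0.136 in MSMs from ndLN, and 0.397 and 0.327 in MSMs from tdLN. No group overlapped another, and Cd274 exceeded Cd86 in both SSM libraries from ndLN in 1 of the 2 from tdLN, and in no MSM library. The ratio of Cd274 to Cd80 was 2.52 to 4.08 over the 4 SSM libraries, 2.38 and 2.09 in MSMs from tdLN, and 0.920 and 0.509 in MSMs from ndLN. The ratio of Cd86 to Cd80 was 1.65 to 1.80 in SSMs from ndLN, 2.41 to 3.44 in SSMs from tdLN, 3.74 to 5.35 in MSMs from ndLN and 5.99 to 6.40 in MSMs from tdLN. These ratios were not tested.

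**Figure D4:**
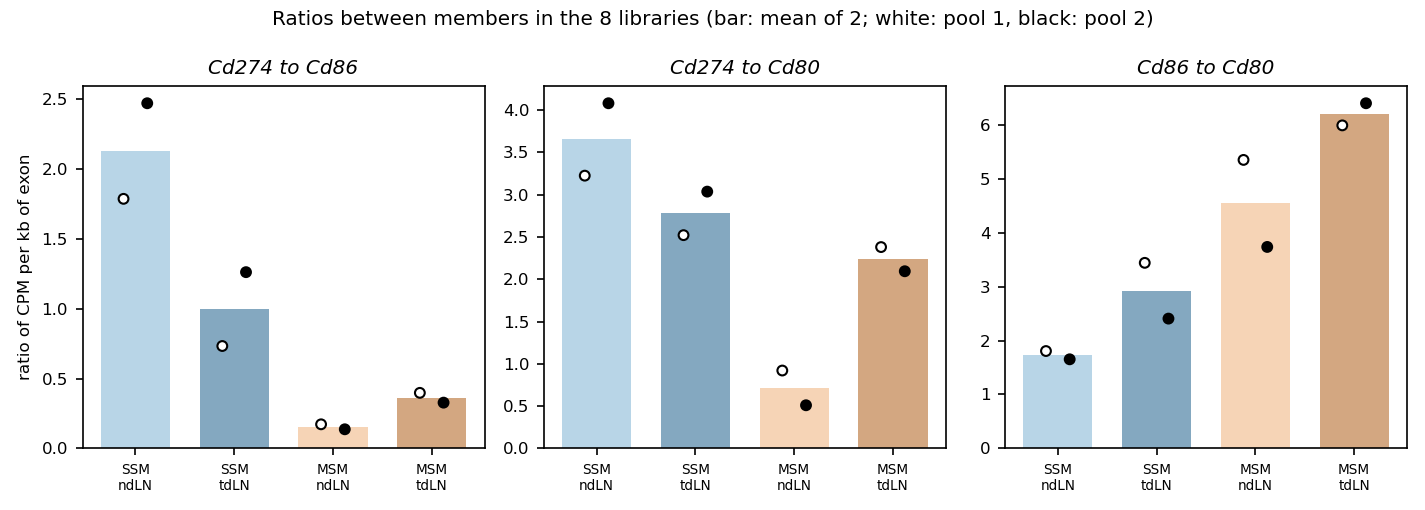
Ratio of CPM per kb of exon (linear axis from 0) of Cd274 to Cd86, Cd274 to Cd80 and Cd86 to Cd80 in SSMs and MSMs from ndLN and tdLN. Bars are means of 2 libraries, white points pool 1 and black points pool 2, and the Cd274 to Cd86 ratio lies between 1.79 and 2.47 in SSMs from ndLN and between 0.136 and 0.172 in MSMs from ndLN.

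The partners of these genes on lymphocytes had a pattern of their own. Of Cd28, Ctla4, Icos, Pdcd1 and Cd40lg, 4 of 5 were called higher in SSMs than in MSMs in ndLN, and 3 were called higher and 1 lower in tdLN, beside 6.01% and 5.16% of all genes called higher. Icos, the receptor of Icosl, was at 935 and 1054 CPM in SSMs and 37.5 and 57.6 CPM in MSMs from ndLN, a 21.1-fold difference (4.40 ± 0.213, adjusted p = 2.12e-05). Cd40lg, the ligand of Cd40, was at 136 and 140 CPM in SSMs and 3.31 and 1.56 CPM in MSMs from ndLN (5.85 ± 0.316, adjusted p = 3.12e-05). Ctla4 was the exception, lower in SSMs from tdLN (8.59 and 14.9 CPM against 40.0 and 41.9 CPM, -1.82 ± 0.255, adjusted p = 0.00253). In SSMs, Pdcd1 fell from 98.1 and 131 CPM in ndLN to 26.7 and 36.1 CPM in tdLN (-1.87 ± 0.207, adjusted p = 0.00268), beside the lower T cell marker sum of the same libraries. Of the ligands of Ccr7, Ccl19 was at 0.0513 to 0.290 CPM and Ccl21a was below the filter.

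A further list of 12 genes held the B7 and TNF ligand families or their partners, and Pvr, Nectin2 and Lgals9, which are of other families. Of these, 11 were tested. In SSMs, 2 were called higher and 2 lower in ndLN, and 2 higher and 0 lower in tdLN, beside the same shares. Tnfsf14 (LIGHT) was higher in SSMs in ndLN by 2.68 ± 0.359 on the log2 scale (adjusted p = 0.00148) and in tdLN by 2.30 ± 0.357 (adjusted p = 0.00402). Tnfsf9, the ligand of 4-1BB, was lower in SSMs in ndLN (-1.71 ± 0.221, adjusted p = 0.00126), as were 6 of the 10 genes above. Between nodes, 3 of the 11 were called in SSMs, 2 higher and 1 lower in tdLN, beside 1.98% and 1.05% of all genes. Nectin2 (2.42 ± 0.345, adjusted p = 0.00672) and Vsir, which encodes the checkpoint protein VISTA (0.98 ± 0.131, adjusted p = 0.00553), were higher in tdLN, and Tnfsf4, which encodes OX40 ligand, was lower (-1.73 ± 0.216, adjusted p = 0.00411). In MSMs 0 of the 11 were called by edgeR or by DESeq2, with 4 at an unadjusted p under 0.05 (11.9% of all genes). Lgals9, the most highly counted of these genes, was called higher in SSMs in tdLN (1.54 ± 0.254, adjusted p = 0.00526).

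Of 15 genes of NF-kappaB signalling other than Relb, 6 were called between the subsets in ndLN, with SSMs higher for 5 and lower for 1, and in tdLN 3 were called, with SSMs higher for all of them, beside 6.01% and 5.16% of all genes called higher. Tnfaip3 (A20), which restrains the pathway, was the most highly counted and the most changed, at 2288 and 2840 CPM in SSMs and 780 and 664 CPM in MSMs from ndLN (1.83 ± 0.158, adjusted p = 2.00e-04). It was also higher in SSMs in tdLN (1.48 ± 0.157, adjusted p = 7.07e-04), together with the inhibitors Nfkbie (1.03 ± 0.113) and Nfkbia (0.55 ± 0.105). The subunits Rela (0.91 ± 0.155, adjusted p = 0.00468) and Nfkb1 (0.88 ± 0.177, adjusted p = 0.00948) were higher in SSMs in ndLN, where the difference of Relb was not called. Between nodes, 0 of the 15 were called by edgeR's quasi-likelihood test in either subset, with 7 in SSMs and 5 in MSMs at an unadjusted p under 0.05 (23% and 11.9% of all genes), and DESeq2's Wald test called 5 and 1 (9.17% and 2.35% of all genes).

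A list of 22 other genes known from mature dendritic cells gave 3 called higher and 5 lower in SSMs in ndLN, and 0 higher and 11 lower in tdLN, where 6.06% and 3.52% of all genes were called lower. The median log2 fold change of the list was -0.32 in ndLN and -1.27 in tdLN, where that of all tested genes was 0.09 and 0.02. Il12b, the p40 chain of interleukin 12, was at 22.5 and 73.6 CPM in SSMs and 816 and 718 CPM in MSMs from ndLN (-4.13 ± 0.494, adjusted p = 8.84e-04). Tbc1d4 was lower in SSMs in ndLN (-2.66 ± 0.28, adjusted p = 4.94e-04), whereas Stat4, which T and NK cells also express, was higher (2.70 ± 0.215, adjusted p = 1.36e-04). In tdLN the largest differences were those of Aldh1a2, an enzyme of retinoic acid synthesis (-4.53 ± 0.457, adjusted p = 5.99e-04), Il12b (-3.74 ± 0.482, adjusted p = 0.00174) and the chemokine Ccl17 (-3.52 ± 0.432, adjusted p = 0.00138). Tmem123, the most highly counted, was lower in SSMs in tdLN as Ccr7 was (-1.30 ± 0.185, adjusted p = 0.00268). In SSMs 1 of the 22 was called higher in tdLN (Marcksl1) and 1 lower (Samsn1), beside 1.98% and 1.05% of all genes. In MSMs 0 were called, with 12 at an unadjusted p under 0.05 and 5 by DESeq2's Wald test (11.9% and 2.35% of all genes). Lamp3 and Il4i1, also on this list, were at 0.388 CPM or less in every library.

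The genes nearest to a member in pattern were found from centred log2(CPM + 1) values over the 8 libraries, among 9978 other genes with a mean normalized count over 100. Nearest to Ccr7 were Rabgap1l, Idi1 and Galnt12, at distances of 0.499, 0.532 and 0.547 and Pearson r of 0.961, 0.953 and 0.960. Rabgap1l, for example, was at 96.7 and 122 CPM in SSMs from ndLN and at 44.6 and 67.4 CPM in SSMs from tdLN. Nearest to Cd274 were Fam20b, Ptcd1 and Siae (distances of 0.368 to 0.404). For Relb they were Tax1bp1, Tmco4 and Ubr7 (0.229 to 0.277), and for Icosl Eif2ak4, Hps4 and Rbbp7 (0.269 to 0.378). The 8 libraries share animals within a pool and the genes were picked for likeness out of many, so these values are a description.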

How the data were processed

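Libraries were made with the SMART-Seq v4 kit and sequenced on a HiSeq instrument. Per the labels and the methods of the study, the authors demultiplexed with bcl2fastq 2.20.0.422, trimmed with Trimmomatic 0.36, aligned to GRCm38 (mm10) with STAR 2.5.3a, and deposited 1 table of raw read counts per gene, without normalization. The strand setting and the annotation release are not given in the sources used here. Symbols, coordinates and exon lengths were taken from GENCODE M21, which held 55240 of the 55421 gene IDs. The table has 2 further rows for added sequences, with 6 reads, which were left out. All columns were mapped to samples.

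The 16 samples are 8 libraries on 2 lanes each. The counts of paired lanes agreed within sampling noise (chi-square per degree of freedom 0.955 to 1.015) and were summed, which left n = 2 libraries a group. P-values rest on the spread between libraries of pools of 2 mice that is left after the group and pool terms. It was estimated from all 8 libraries, also those outside a comparison, with information shared across genes. Numbers pair the libraries because SSMs and MSMs of a pool came from the same animals, and the labels, which were followed here, number the pools 1 and 2. The study's methods count 4 pools, a number that its sample matrix reaches across lanes. The correlation of same-numbered deviations from the group means, over 9988 genes, was -0.05 for the subsets in ndLN, 0.15 for the subsets in tdLN, and 0.02 and -0.01 for the nodes within SSMs and within MSMs. For the 2 crossed pairs of groups it was -0.19 (SSMs from ndLN with MSMs from tdLN) and 0.05 (SSMs from tdLN with MSMs from ndLN).

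Genes with a total of 10 counts or more and a count in at least 2 of the 16 samples were tested in edgeR 4.0.16 (R 4.3.3) with TMM factors, group and pool as terms and all 8 libraries in the quasi-likelihood fit of edgeR 4. SE is the log2 fold change divided by the square root of F. The members and gene lists were chosen with earlier results of these data known. Named genes were all 10 members, and of each list the gene of highest mean and the 3 largest changes among those called in each comparison. Lamp3, Il4i1, Kit and Cd207 were singled out with their values in view. The nearest genes used a pseudocount of 1. Alternatives were no pool block, DESeq2 1.42.0, its size factors, other filters, single lanes, only the groups compared, a looser threshold, each library left out, and the legacy fit of edgeR, which was added after seeing the data. The fits were tested on simulated data for SSMs against MSMs in ndLN, with calls at an adjusted p under 0.01. With 200 genes changed 4-fold, the main fit made 161 calls, 3 of them false. The legacy fit made 188, 13 of them false. With no gene changed, the main fit made 0 calls and the legacy fit 7.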

Additional observations from a re-analysis of the deposited data

Results flagged for a closer look

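For 3 of the 10 genes, the 2 SSM pools moved one way between ndLN and tdLN and the 2 MSM pools the other way. The share of all tested genes with such a pattern was not counted, so the number has no background beside it. For Cd86, tdLN was higher by 1.36 and 1.14 in SSMs (log2, pools 1 and 2) and MSMs were at -0.60 and -0.58, a difference between the subsets of 1.841 (adjusted p = 0.0176, edgeR's quasi-likelihood interaction test). For Cd80, SSMs were at 0.43 and 0.60 and MSMs at -0.76 and -1.35, a difference of 1.575 (adjusted p = 0.0389). For Ccr7, SSMs were at -1.04 and -1.06 and MSMs at 0.34 and 0.33, a difference of -1.384 (adjusted p = 0.0675). None reached the threshold of 0.01 in that test. No causes were examined.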

How the results depend on the processing

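Of 890 values of the 10 genes under 18 alternatives, 810 kept their direction and side of the threshold, 47 lost a call, 21 gained one and 12 changed sign. Without the replicate block, that is, without the pairing by pool, the members called remained at 6 in tdLN between subsets and 2 in SSMs between nodes and went from 6 to 5 in ndLN, with Fscn1 lost, and the genes called in MSMs between nodes went from 5 to 9. With only the groups compared in the fit, SSMs against MSMs in ndLN gave 965 genes in place of 2544 and 1 member (Cd86) in place of 6. That fit called 0 genes in SSMs between nodes, in place of 639 genes and 2 members, and 0 in MSMs, with 4798 and 2728 genes and 5 and 9 members at an unadjusted p under 0.05 in edgeR. It has fewer libraries, and the interaction needs all groups and was not run in it.

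DESeq2's Wald test called 2990 genes in place of 1832 between subsets in tdLN, 1934 in SSMs and 496 in MSMs between nodes, and 678 in place of 8 for the interaction, with 5 members in MSMs and 4 for the interaction in place of 0. Genes kept at 1 CPM or more in 2 libraries gave 1130 calls in SSMs, 62 in MSMs and 95 for the interaction. Lane 3 alone gave 24 in MSMs and 25 for the interaction, lane 4 alone 17 and 29, and each of these 3 settings called 1 member, Cd86, for the interaction. The legacy fit gave 23 in MSMs. DESeq2's size factors gave 4 genes for the interaction, all higher, in place of 7 higher and 1 lower. At an adjusted p under 0.05 with no mean threshold there were 4937, 3534, 2034, 97 and 216 genes in the 5 comparisons, and 2 members (Cd80 and Cd86) for the interaction. The cause of these changes was not tested.

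Leaving out 1 library gave 1083 to 2021 genes and 4 to 6 members between subsets in ndLN, 507 to 1873 genes and 1 to 6 members in tdLN, 2 to 345 genes and 0 to 1 members in SSMs between nodes, 0 to 3 genes in MSMs and 0 for the interaction. Signs changed only in values that were not called. Between subsets in ndLN, the log2 fold change of Ccr7 ranged from -0.337 to 0.091, above 0 without pool 1 of either subset from ndLN, and that of Relb from -0.083 (without pool 2 of SSMs from ndLN) to 0.345. In tdLN, Cd274 ranged from -0.126 (without pool 2 of SSMs; -0.061 without pool 2 of MSMs) to 0.385. In SSMs between nodes, Cd83 ranged from -0.181 (without pool 1 from ndLN) to 0.480, Relb from -0.359 to 0.069 (without pool 2 from ndLN), Fscn1 from -0.409 to 0.492, Cd274 from -0.148 to 0.343 and Pdcd1lg2 from -0.683 to 0.773, the last 3 lowest without pool 2 from tdLN. Without its sign changing, Pdcd1lg2 ranged from 0.779 to 2.135 and from -1.759 to -0.284 between subsets in ndLN and tdLN, and from 1.829 to 3.185 in MSMs between nodes. Cd274 was also at -0.050 without pool 1 from ndLN and Pdcd1lg2 at -0.056 without pool 2 from ndLN. With 2 libraries a group, the intervals of the least counted gene, Pdcd1lg2, were the widest of the 10.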

Other observations

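Summed over the 10 genes, the level was 3176 to 4381 CPM in the SSM libraries and 8253 to 9656 CPM in the MSM libraries, and Cd83 and Ccr7 made up most of it in each library. Kit, a receptor listed here with the innate-like lymphoid markers only, was at 606 and 614 CPM in MSMs from ndLN and 374 and 269 CPM in MSMs from tdLN. The sum of 10 mast cell and basophil markers, which does not include Kit, was 35.3 to 77.5 CPM in MSMs, most of it Hdc at 34.6 to 69.6 CPM. Cd207 (langerin) was at 126 and 68.9 CPM in MSMs from ndLN, 21.9 and 17.4 CPM in MSMs from tdLN and 0.336 to 2.99 CPM in SSMs.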
